A study of Homo sapiens with 62 samples.

Results

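UCK2 and 9 other genes of nucleoside salvage and pyrimidine supply were followed through messenger RNA sequencing of 62 libraries from 5 human cell lines. The genes were chosen by name: UCK2, UCK1, UCKL1, DCK, TK1, CMPK1, SLC29A1, CDA, UPP1 and UMPS, which make 10 of the 58735 genes in the tables of 4 lines and 10 of the 48162 genes in the tables of A2780. Each had 1 row in every count table. UCK2 lies on the long arm of chromosome 1 (1q), the arm whose extra copy the study removed in 4 of the lines, and its product activates uridine and cytidine analogs.

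Cells build pyrimidine nucleotides de novo, with UMPS catalysing the last steps to UMP, or salvage them from nucleosides that enter through transporters such as SLC29A1 (ENT1). In salvage, kinases trap the nucleoside by adding a phosphate: UCK2, UCK1 and UCKL1 act on uridine and cytidine, DCK on deoxycytidine and several deoxynucleosides, and TK1 on thymidine. CMPK1 adds the next phosphate to CMP, UMP and dCMP. CDA deaminates cytidine and deoxycytidine, and UPP1 splits uridine to uracil, so both draw nucleosides away from the kinases.

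The lines were A2058 (melanoma), AGS (gastric cancer), A2780 (ovarian cancer), HCT116 (colorectal cancer) and MCF10A (breast epithelium). Wildtype (WT) cells carried the gains: 1q, 7p and 8q in A2058, 1q in AGS, A2780 and MCF10A, and 8q in HCT116. Loss clones were derived from single cells after ReDACT, a group of engineering methods that remove 1 extra arm, in versions the labels call NS, TR and CO. The clones of A2058 and HCT116 were made with CO and those of A2780 with NS. In AGS, 4 clones were made with NS and clone c11 with CO. In each MCF10A background, 3 clones were made with TR and clone c4 with CO. AGS and A2780 also had cells with a TK+ integrant that kept the 1q gain, and MCF10A was studied with and without hRASV12. All cells were plated 24 hours before extraction.

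There were 4 WT, 4 1q-loss, 6 7p-loss and 4 8q-loss libraries of A2058. AGS had 1 WT, 2 TK+ and 5 1q-loss libraries, and A2780 had 2 WT, 2 TK+ and 6 1q-loss libraries. MCF10A had 2 WT and 8 1q-loss libraries without hRASV12 and the same numbers with it (MCF10A hRas), and HCT116 had 2 WT and 4 8q-loss libraries. Except in AGS, loss libraries come as pairs from 1 clone, so libraries of a clone are not independent clones. Assigned reads per library ranged from 15042068 to 30984036. The 6 markers fixed for each line were at 1 CPM or more (CPM is a library's counts scaled to a common depth) in parental cells for 6 of 6 in A2058, AGS and MCF10A. In HCT116, 2 of 6 were (EPCAM and CDX2), with CDX1, VIL1, CDH17 and KRT20 at 0.401 CPM or less. In A2780 also 2 of 6 were (KRT8 and KRT18), with PAX8, WT1 and MUC16 at 0.195 CPM or less and EPCAM at 0.974 and 1.27.

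UCK2 (ENSG00000143179) spans chr1:165827531-165911618 on the plus strand of GRCh38, the build of 4 lines, and chr1:165796768-165880855 of GRCh37, the build of the A2780 tables. UCK1 (chr9:131523801-131531268, GRCh38) and UCKL1 (chr20:63939829-63956415, GRCh38) are its closest relatives, so reads of the 3 genes could be confused if their sequences were alike. The stretch below codes for the phosphate-binding loop (Walker A motif) of each kinase, a conserved part of the family. It is shown to let the 3 messages be compared, with the codons of the loop in capitals. Each run is 54 coding bases, 5′ to 3′ on the gene's strand, from the GENCODE 29 transcript sequence (GRCh38), and crosses 1 intron. UCK2 and UCK1 are read across exons 1 and 2, and UCKL1 across exons 2 and 3.
UCK2, chr1:165827897-165890221, plus strand: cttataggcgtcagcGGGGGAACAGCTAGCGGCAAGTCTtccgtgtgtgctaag
UCK1, chr9:131530628-131531102, minus strand: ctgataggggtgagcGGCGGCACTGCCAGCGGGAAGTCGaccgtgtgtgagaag
UCKL1, chr20:63946221-63946459, minus strand: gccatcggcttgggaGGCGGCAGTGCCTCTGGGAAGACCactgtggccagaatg
Against UCK2, UCK1 differed at 12 of these 54 bases, 6 of them in the loop. UCKL1 differed at 28, with 11 in the loop. Over the aligned coding sequence UCK2 shared 70.4% of bases with UCK1 and 57.7% with UCKL1. The longest identical run was 23 bases with UCK1 and 15 with UCKL1.

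In control cells (WT and, in AGS and A2780, TK+ libraries) most of the genes differed several-fold between lines. Lines were compared in CPM, because the A2780 annotation gives shorter exon models to 9 of the 10 genes (4669 against 7067 bases for UCK2) and dividing by length would then move A2780 alone. CPM does not remove this difference, since reads outside the shorter models would not be counted. The place of A2780 among the lines is therefore not settled. UCK2 held 200 to 226 CPM in the 4 A2780 controls and 182 and 204 in MCF10A, which overlapped. It was lower in A2058 (120 to 130), HCT116 (87.1 and 108) and AGS (76.0 to 83.9), with no overlap among these 3 or with the lines above. Divided by exon kilobases, UCK2 held 42.8 to 48.5 in A2780 and 25.8 and 28.9 in MCF10A, without overlap.

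UCK1 followed another order, from 64.9 to 74.7 CPM in A2058 through HCT116 (53.2 and 57.3), A2780 (38.5 to 40.8) and MCF10A (24.1 and 24.6) to AGS (14.0 to 17.8), with no overlap. UCKL1 was highest in HCT116 (159 and 202 CPM). In CPM it was lowest in A2780 (17.7 to 25.1), just below A2058 (27.3 to 32.4). Divided by exon kilobases, A2780 (9.08 to 12.8) and A2058 (8.58 to 10.2) overlapped. Per length, with CPM divided by exon kilobases, UCK1 stood above UCK2 in A2058 (25.8 ± 1.52 against 17.5 ± 0.667 CPM per kb, SD, n = 4) and in HCT116. In AGS (11.4 ± 0.592 against 5.90 ± 0.708, n = 3), MCF10A and A2780, UCK2 stood above UCK1.

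TK1, the thymidine kinase of dividing cells, was the most abundant member per length in each of the 5 lines, from 39.4 ± 3.27 CPM per kb in AGS (SD, n = 3) to 353 ± 108 in HCT116 (n = 2). In CPM it held 514 and 799 in HCT116 and 67.0 to 174 in the controls of the other lines. The transporter SLC29A1 ran from 11.6 to 17.5 CPM in AGS to 212 and 255 in HCT116. DCK was highest in MCF10A (59.2 and 62.7 CPM), above A2058 (37.1 to 53.3), and A2780, AGS and HCT116 overlapped further down. CMPK1 was lowest in HCT116 (25.4 and 42.6 CPM) and highest in MCF10A (219 and 242).

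CDA had the widest range. It held 18.1 and 24.3 CPM in HCT116 and 11.8 and 15.3 in MCF10A, but 0.0408 to 0.296 in A2058 and 0 to 0.184 in A2780, which are a few reads per library. UPP1 was highest in MCF10A (172 and 193 CPM), while AGS (18.5 to 29.2) and A2780 (6.98 to 19.4) overlapped at the low end. For UMPS, MCF10A (75.1 and 91.3 CPM), A2058 (69.1 to 76.3) and HCT116 (58.9 and 78.6) overlapped, and AGS (29.1 to 34.1) lay below the rest.

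**Figure D1:**
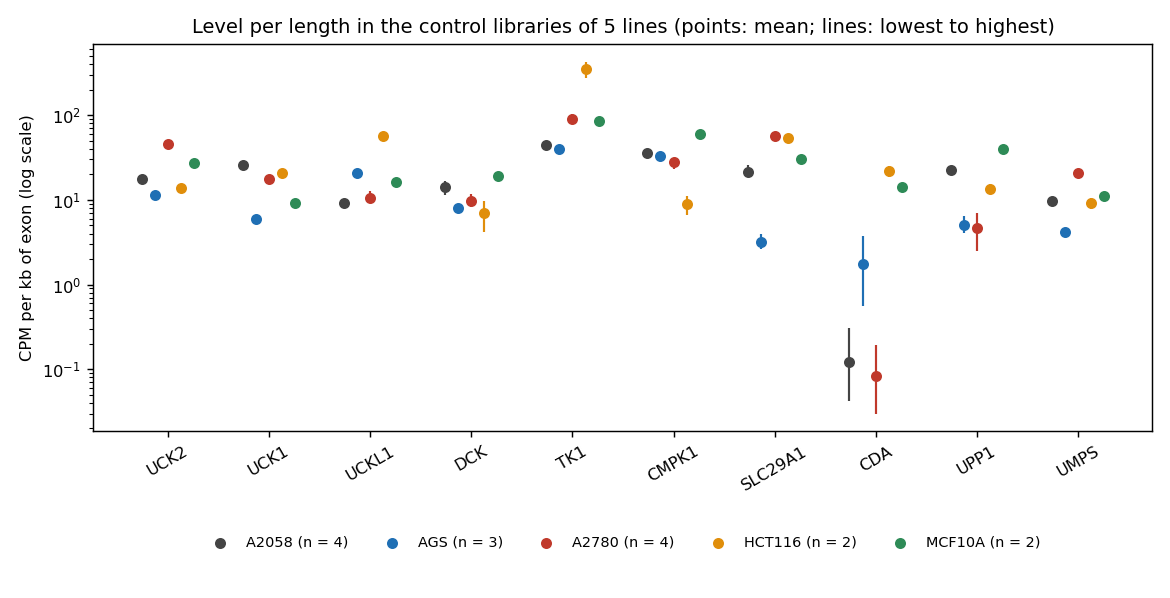
CPM per kb of exon (log axis) of the 10 genes in control libraries of 5 lines, with points at the mean and lines from the lowest to the highest library (the A2780 line for CDA is drawn to the axis foot region because 1 library is at 0); A2780 values carry that table's own exon lengths. TK1 is highest in each line, and CDA separates HCT116 and MCF10A from A2058 and A2780.

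UCK2 was lower after 1q loss in all 5 backgrounds, to between 59.4% and 72.9% of its control level, and fell by the test in 4 of them. In A2058 the 4 WT libraries stood at 121, 122, 120 and 130 CPM, and the 1q-loss libraries at 89.5 and 90.3 (clone c1) and 87.7 and 91.6 (clone c2). The 2 clones were alike and every loss library lay below every WT library. UCK2 fell by 0.46 on the log2 scale (SE 0.055, adjusted p = 5.54e-05, edgeR quasi-likelihood test with Benjamini-Hochberg adjustment), to 72.5% of WT. Of all genes tested in this comparison 49.6% were called, so a call by itself says little here.

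AGS gave a drop of similar size. The WT library stood at 76.0 CPM and the TK+ libraries at 83.9 and 82.3, while the 1q-loss clones c1, c4, c6, c7 and c11 stood at 58.9, 58.7, 67.3, 61.2 and 53.7. All 5 clones lay below all 3 controls. UCK2 fell by 0.46 on the log2 scale (log2 fold change -0.455, SE 0.097, adjusted p = 0.0271, edgeR), where 7.55% of genes were called. The call was lost when clone c1 (adjusted p = 0.0554), clone c7 (0.0569), TK+ c1 (0.0929), TK+ c2 (0.116) or the WT library (0.0790) was left out. It was also lost with no filter on low counts (0.0583). Against the single WT library the log2 fold change was -0.36, in a fit whose spread comes from the loss clones alone and which called 0 genes, so its missing call says nothing about UCK2.

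In A2780 the controls stood at 200 and 209 CPM (WT) and 217 and 226 (TK+). The 6 1q-loss libraries ran from 111 through a median of 136 to 155, lowest in clone c2 (119 and 111) and highest in clone c6 (155 and 147), and none reached a control. UCK2 fell by 0.66 (SE 0.089, adjusted p = 0.00109, edgeR) to 63.1% of the controls, where 11.8% of genes were called.

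MCF10A WT libraries held 204 and 182 CPM, and the 8 1q-loss libraries ran from 103 through a median of 115 to 137. UCK2 fell by 0.70 (SE 0.103, adjusted p = 0.00251, edgeR) to 61.6% of WT, with 2.04% of genes called. Without WT replicate 1 the adjusted p was 0.108 and the log2 fold change -0.63. With hRASV12, the WT libraries held 187 and 192 CPM and the 8 loss libraries ran from 86.8 through a median of 109 to 146. Clones c2 (94.6 and 90.2) and c4 (86.8 and 98.0) were lower than c1 (121 and 135) and c3 (138 and 146), yet all 8 lay below both WT libraries. The log2 fold change was -0.75 (SE 0.196), the most negative of the 5, but it did not pass (adjusted p = 0.167, edgeR), in a comparison where 0.214% of genes were called. DESeq2 called it (adjusted p = 0.0406).

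**Figure D2:**
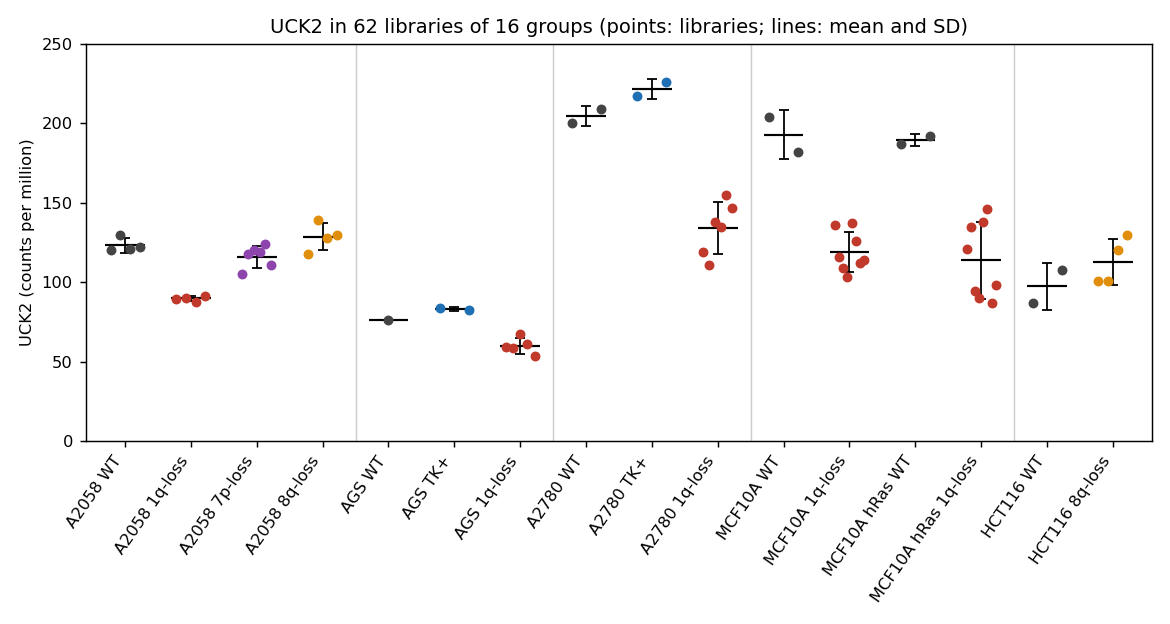
UCK2 in CPM in each of 62 libraries, by group (red: 1q-loss; purple: 7p-loss; orange: 8q-loss; blue: TK+; grey: WT), with the mean and SD. Red points lie below the WT and TK+ points of their own background in all 5 backgrounds.

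Each of the 18 1q-loss clones had a mean below the mean of its controls. A test across the 5 backgrounds did not show that the UCK2 change differed between them (adjusted p = 0.441, edgeR), in a fit where 27.6% of genes differed. Nor did it show that hRASV12 altered the change within MCF10A (difference of log2 fold changes -0.06, SE 0.245, adjusted p = 0.999, edgeR). That difference spans -0.55 to 0.43 within 2 SE, so a sizeable one could have been missed. For all genes, this last test called 0 of 16492, with 366 at an unadjusted p under 0.05 and 1 called by DESeq2.

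Dropping from 3 copies to 2 would leave 66.7% of a message that followed copy number, a log2 change of -0.58. The median gene tested on 1q changed by -0.46 in A2058, -0.54 in AGS, -0.45 in A2780, -0.50 in MCF10A and -0.37 in MCF10A hRas, on the log2 scale. UCK2 stood near that median in A2058, where 48.9% of the 677 tested 1q genes had a lower value, and in AGS, where 57.2% of 659 did. It stood lower in the arm in A2780 (17.9% of 647 had a lower value), MCF10A (19.6% of 710) and MCF10A hRas (12.4% of 720).

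Genes around UCK2 moved the same way. Besides UCK2, 9 protein-coding genes have their midpoint within 1 Mb of its own. Of those tested, 7 of 7 were called lower in A2058, 3 of 5 in AGS, 4 of 5 in A2780, 4 of 6 in MCF10A and 2 of 6 in MCF10A hRas, and each one tested had a log2 fold change below 0. Over all tested genes of 1q the shares called lower were 59.7%, 32.2%, 48.7%, 34.6% and 3.47% in the same order, and over all genes tested 24.3% in A2058, 4.17% in AGS, 5.88% in A2780 and 1.74% in MCF10A. TMCO1, a calcium channel of the endoplasmic reticulum, overlaps UCK2 on the opposite strand. Its log2 fold changes were -0.37 in A2058, -0.66 in AGS, -0.80 in A2780, -0.61 in MCF10A and -0.50 in MCF10A hRas, called in all but the last (adjusted p = 0.0981, edgeR). Whether the counting used strand is not given in the sources used here, so reads in the shared stretch cannot be told apart. UCK1 overlaps POMT1 in the same way, and DCK overlaps MOB1B on its own strand.

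Away from 1q, UCK2 passed in no comparison. It held 118, 139, 128 and 130 CPM in the A2058 8q-loss libraries (log2 fold change 0.06, SE 0.074, adjusted p = 0.800, edgeR) and from 105 through a median of 118 to 124 in the 6 7p-loss libraries (-0.10, SE 0.065, adjusted p = 0.555). The 1q, 7p and 8q comparisons of A2058 share their WT libraries. In HCT116, WT libraries at 87.1 and 108 CPM faced 8q-loss libraries at 101, 101, 120 and 130 (0.14, SE 0.255, adjusted p = 1.00, edgeR). TK+ against WT in A2780 gave 0.11 (SE 0.079, adjusted p = 0.484) and hRASV12 against none in MCF10A WT gave -0.01 (SE 0.077, adjusted p = 0.977).

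UCK1, encoded on chromosome 9, was called with 1q loss in A2058 only. Its WT libraries held 67.9, 69.8, 64.9 and 74.7 CPM, and the 1q-loss libraries 46.8 and 41.9 (clone c1) and 50.4 and 48.4 (clone c2), with no overlap. UCK1 fell by 0.57 (SE 0.075, adjusted p = 1.15e-04, edgeR), to 67.4% of WT. In AGS, A2780, MCF10A and MCF10A hRas its log2 fold changes were 0.07 (SE 0.139), -0.15 (SE 0.068), 0.05 (SE 0.121) and -0.03 (SE 0.163), none called. In A2780 the 6 loss libraries (30.9 to 37.5 CPM) still lay below the 4 controls (38.5 to 40.8), at an unadjusted p of 0.0441 (edgeR). The change differed among the 5 backgrounds (adjusted p = 0.00551, edgeR), although not without A2058 clone c1 (0.0572). In the 6 A2058 7p-loss libraries UCK1 ran from 45.5 through a median of 56.0 to 60.4 CPM, all below WT, but was not called (log2 fold change -0.35, SE 0.094, adjusted p = 0.142).

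The balance of the pair was followed by the ratio of their counts in each library. UCK2 counts were 5.10 times UCK1 counts in AGS controls and 3.55 times in loss clones (means on the log scale). The ratio went from 5.35 to 3.74 in A2780, from 7.91 to 4.72 in MCF10A and from 7.14 to 4.27 in MCF10A hRas. In A2058 it was 1.78 in WT and 1.92 after 1q loss. The differences in log2 ratio were -0.52 in AGS (exact permutation p = 0.0714), -0.51 in A2780 (0.00952), -0.74 in MCF10A (0.0444), -0.74 in MCF10A hRas (0.0889) and 0.11 in A2058 (0.171), all two-sided. Over the 8 loss comparisons the adjusted values were 0.0762 or more, so none passed. The other loss comparisons also did not pass: A2058 7p-loss differed by 0.26 (exact permutation p = 0.0190), 8q-loss by 0.15 (0.0286) and HCT116 8q-loss by -0.09 (0.667). In A2780 1q-loss, MCF10A 1q-loss and A2058 8q-loss these were the smallest values the numbers of libraries allow.

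**Figure D3:**
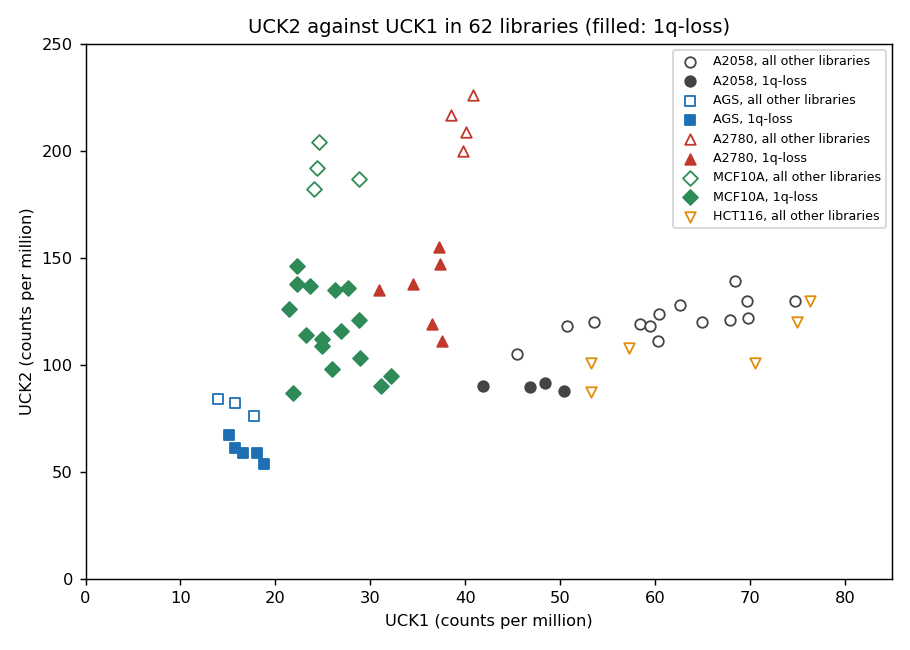
UCK2 against UCK1 in CPM, 1 point per library, with 1q-loss libraries filled. Filled points of AGS and MCF10A lie below open ones at similar UCK1, while those of A2058 and, with a smaller UCK1 shift, A2780 lie lower in both genes.

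UCKL1 was not called in any comparison when all libraries were fitted, and a call in A2780 TK+ against WT without 1 library is given with UPP1 below. Its largest negative value with 1q loss came in MCF10A, where the WT libraries at 49.2 and 53.3 CPM lay above all 8 loss libraries (34.7 to 46.4, median 39.5), and the change was -0.36 on the log2 scale (SE 0.107, adjusted p = 0.149, edgeR). With hRASV12 it was 0.02 (SE 0.114), from WT libraries that already stood at 40.8 and 42.5 CPM.

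Among the other salvage kinases that were members (DCK, TK1 and CMPK1), no change passed with loss of 1q, 7p or 8q when all libraries were fitted without a replicate block. TK1 in A2058 1q-loss (88.2 to 101 CPM against 74.7 to 92.5 in WT, log2 fold change 0.18, adjusted p = 0.0967, edgeR) was called with the block (0.30, adjusted p = 0.0292) and without WT replicate 3 (0.22, 0.0479). DCK, which activates cytarabine and gemcitabine, held 35.9 to 55.8 CPM in MCF10A 1q-loss, below both WT libraries (62.7 and 59.2), without a call. Its log2 fold changes with 1q loss were 0.19 (A2058), 0.04 (AGS), 0.06 (A2780), -0.28 (MCF10A) and -0.27 (MCF10A hRas). TK1 in AGS split by clone: c1 and c4 held 160 and 138 CPM, and c6, c7 and c11 held 76.1, 75.7 and 79.8, beside 67.0 to 79.2 in controls (0.51, SE 0.280, adjusted p = 0.282). Clones c1 and c4 were also lowest in the markers CDH17 (2.40 and 0.845 CPM, 15.9 to 37.9 in the other 3), MUC1 (12.1 and 11.5, 24.4 to 62.6) and EPCAM (572 and 557, 690 to 795). They were highest in KRT8 (4450 and 4590, 3270 to 4160), while KRT18 and GATA6 did not divide the clones this way. The part of these markers was not tested. The 11 cell cycle genes counted alongside had a median log2 fold change of 0.37 in AGS, with 0 called by edgeR, 2 at an unadjusted p under 0.05 and 1 called by DESeq2. In MCF10A hRas, where TK1 changed by -0.25 (SE 0.198), their median was -0.39, with 0 called by edgeR or DESeq2 and 1 at an unadjusted p under 0.05. The list's median was -0.17 in A2780 beside -0.02 for TK1, with 2 of 11 called lower, 6 at an unadjusted p under 0.05 and 3 called by DESeq2, where 5.88% of all genes were called lower. It was -0.01 in A2058 beside 0.18 for TK1, with 1 of 11 called higher where 25.3% of all genes were. In MCF10A it was -0.18 (0 called by either tool or at an unadjusted p under 0.05) beside -0.16 for TK1. Proliferation as a part of the TK1 values was not tested. In A2058 7p-loss, clone c1 held 138 and 127 CPM of TK1 against 71.9 to 88.4 in clones c2 and c3. In HCT116 the 8q-loss libraries held 1300, 819, 845 and 867 CPM, all above WT at 799 and 514, without passing (0.46, SE 0.298, adjusted p = 1.00).

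CMPK1, on the short arm of chromosome 1, gave log2 fold changes of 0.11 (A2058), -0.27 (AGS), -0.16 (A2780), 0.01 (MCF10A) and -0.03 (MCF10A hRas) with 1q loss, none called. In A2780 it was called against WT alone (-0.27, adjusted p = 0.0490, edgeR) and without TK+ replicate 2 (-0.24, 0.0408), and it was -0.05 against TK+ alone. CDA lies on the same short arm, which was not the arm removed.

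The transporter SLC29A1 was called in no comparison and varied between clones of a group. In A2780, clone c2 held 209 and 201 CPM against 128 to 151 in clones c5 and c6 and 134 to 152 in controls. In MCF10A hRas, clone c1 held 166 and 148 CPM, c3 held 119 and 117, c4 held 92.4 and 95.2, and c2 held 79.9 and 76.4, with both WT libraries between c3 and c1. In A2058, 7p-loss clone c1 stood at 50.4 and 54.1 CPM while clones c2 and c3 ran from 94.3 to 108. The melanocytic marker TYR was high in that clone (578 and 1050 CPM, 0.095 to 4.78 in c2 and c3), and its part in the SLC29A1 and TK1 levels of c1 was not tested. Its log2 fold change with 1q loss was between -0.23 (MCF10A hRas) and 0.52 (AGS, adjusted p = 0.279, edgeR).

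CDA showed the largest change of any member. The 4 A2058 WT libraries held 0.296, 0.0424, 0.0903 and 0.0408 CPM, from 1 to 6 reads each. After 1q loss, clone c1 held 15.2 and 16.3 CPM and clone c2 held 46.9 and 61.4, from 327 to 1650 reads. The fitted log2 fold change was 8.22. CDA passed the low-count filter of this comparison only through the 1q-loss libraries and so had to differ, and its call by edgeR supports nothing here. Since the WT level rests on 10 reads in all, the ratio of levels is better given with its counting error, 316-fold (95% exact Poisson interval 172 to 659 from the WT reads only). WT replicate 1 alone held 6 of the 10 reads. The log2 fold change was 9.12 without it, 7.08 without clone c2 and 8.85 without clone c1. In the other A2058 clones, 5 of 6 7p-loss libraries had 0 reads, which allows up to 0.106 to 0.146 CPM each (counting error only), and the other library held 0.393 CPM from 9 reads. The 8q-loss libraries held 0, 0, 0.141 and 0.0445 CPM. CDA was too low to be tested there.

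The A2058 1q-loss clones differed from WT in much more than CDA and the kinases. All 6 melanocytic markers were called lower in them. SOX10 stood at 24.5 to 79.5 CPM against 454 to 639 in WT, MITF at 8.19 to 23.3 against 133 to 204, PMEL at 9.68 to 24.8 against 761 to 1670, MLANA at 0.819 to 2.01 against 13.6 to 23.1, and S100B at 2.68 to 10.9 against 60.5 to 98.3. TYR stood at 0 to 0.843 CPM against 94.5 to 153. In 7p-loss 1 of the 6 was called lower (MLANA) and in 8q-loss 2 (MLANA and TYR). The 7p-loss clones split in TYR, at 578 and 1050 CPM in clone c1 and 0.095 to 4.78 in c2 and c3, while PMEL ran from 184 to 979 CPM over the 3. The part of this marker loss in the CDA, UCK1 and UPP1 values of the 1q-loss clones was not tested.

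CDA was also higher after 1q loss in the other 3 backgrounds where it was tested, without passing. In AGS the WT library held 0.543 CPM and the TK+ libraries 3.64 and 0.926, and clones c1, c4, c6, c7 and c11 held 7.87, 5.97, 14.9, 8.82 and 4.13, all above the controls. The log2 fold change was 2.27 (SE 0.634, adjusted p = 0.0598, edgeR). It was called by DESeq2 (9.96e-04), without the low-count filter (0.0145), without TK+ c1 (0.0382) and without clone c11 (0.0430). The WT library (11 reads) fell short of the filter and the TK+ libraries alone were too few. CDA thus passed the filter only with the loss libraries, where it is high. The edgeR values with the filter therefore support nothing here, and the other calls are given as values only. Without TK+ c1, the control with the most CDA, the log2 fold change was 3.47, and over the libraries left out in turn it ran from 1.85 to 3.47. Of the 6 AGS markers KRT8 was called higher in the loss clones. MUC1 (11.5 to 62.6 against 84.8 to 199 CPM in controls) and CDH17 (0.845 to 37.9 against 63.8 to 104) lay lower in all 5 clones without a call, KRT18 lay higher in all 5 (1530 to 2120 against 925 to 1390), and EPCAM and GATA6 overlapped. The part of these markers in the CDA values was not tested.

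In MCF10A the WT libraries held 11.8 and 15.3 CPM, and the 8 loss libraries ran from 16.2 through a median of 22 to 30.7, again with no overlap (0.75, SE 0.228, adjusted p = 0.152 by edgeR, 0.0207 by DESeq2). With hRASV12 the WT libraries held 8.81 and 8.01 CPM and the loss libraries ran from 8.52 (clone c2) through a median of 18.1 to 24.4 (clone c4), overlapping WT at clone c2 (1.03, SE 0.395, adjusted p = 0.305). All 4 clones in each MCF10A background had a mean above WT. Between the WT cells, CDA was lower with hRASV12 without passing (-0.67, SE 0.179, adjusted p = 0.0955, edgeR), and it was called without the low-count filter (0.0111). A2780 held 0.184 CPM or less in every library, from 0 to 4 reads, and was not tested. Whether the change differed among the 5 backgrounds was therefore not read from a test, since A2780 has no measurable level and A2058 WT only a few reads.

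In HCT116 the 8q-loss clones lay apart for CDA: c1 held 56.9 and 37.8 CPM and c2 held 5.85 and 8.19, on either side of the WT libraries at 24.3 and 18.1.

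UPP1 lies on the short arm of chromosome 7 (chr7:48088628-48108733, GRCh38), which is the arm lost in the 7p-loss clones. A2058 WT libraries held 95.9, 97.3, 110 and 109 CPM, and the 6 7p-loss libraries ran from 53.2 through a median of 66.5 to 84.6, all below WT. UPP1 fell by 0.65 (SE 0.126, adjusted p = 0.0404, edgeR) to 63.8% of WT, in a comparison where 0.908% of genes were called and where 25% of the 252 tested 7p genes had a lower value than UPP1. The median 7p gene changed by -0.51. The call sits close to the threshold: it was lost without any 1 of the 4 WT libraries (adjusted p from 0.105 to 0.152), without any 1 library of clones c2 and c3 or replicate 1 of clone c1 (0.0583 to 0.0979), without clone c2 (0.0650) or c3 (0.101), and with the libraries of a clone summed (0.135). With a replicate block, although numbers do not pair these samples, the log2 fold change was -0.56 (adjusted p = 0.662).

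The same gene was called lower in A2058 after 1q loss as well, at 79.7 and 84.3 CPM in clone c1 and 69.5 and 77.7 in clone c2 (fell by 0.41, SE 0.078, adjusted p = 0.00138, edgeR), although its arm was not targeted. In 8q-loss it held 96.8 to 132 CPM and was not called (0.135, SE 0.099, adjusted p = 0.618).

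In A2780, UPP1 was the only member called between the kinds of control when all 4 libraries were fitted. Without TK+ replicate 1, UCKL1 (log2 fold change 0.48, adjusted p = 5.61e-04, edgeR) and CMPK1 (-0.36, 7.46e-05) were called too, and without TK+ replicate 2 DCK (0.32, 0.0136) and TK1 (0.29, 1.40e-04) were. Each of these fits leaves 1 TK+ library, assumed to vary like the WT pair. WT libraries held 17.8 and 19.4 CPM and TK+ libraries 7.49 and 6.98, and it fell by 1.36 (SE 0.134, adjusted p = 2.17e-05, edgeR) to 38.9% of WT, with 11.2% of genes called in that comparison. The epithelial markers KRT8 and KRT18 were also called lower in TK+ cells (KRT8 2.32 to 3.30 against 130 to 141 CPM), and their part was not tested. Against both controls together, 1q-loss clone c2 held 48.8 and 48.1 CPM, c5 held 12.7 and 12.6, and c6 held 14.8 and 18.4 (log2 fold change 1.01, SE 0.507, adjusted p = 0.229). This value was 0.18 without clone c2, 0.48 against WT alone and 1.85 against TK+ alone, none called. The keratins divided the same clones: KRT18 was at 38.7 and 42.6 CPM in c2, near WT (38 and 38.7), and at 3.18 to 6.94 in c5 and c6 and 2.23 and 3.30 in TK+. KRT8 was at 41.1 and 43.1 CPM in c2 and 3.04 to 6.89 in c5 and c6. Their part in its UPP1 level was not tested.

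Single clones stood apart for UPP1 elsewhere too. In MCF10A hRas, clone c2 held 44.5 and 46.3 CPM against 134 to 208 in the other 3 clones and 154 and 167 in WT. That clone also stood apart in the epithelial markers other than KRT14: CDH1 was at 2.73 and 3.43 CPM against 162 to 337 in the other hRas loss clones, TP63 at 0.537 and 0.662 against 40.5 to 70.7, and KRT17 at 88.9 and 93.4 against 1390 to 3150. KRT5 (569 and 595 against 2480 to 4200) and EGFR (223 and 235 against 343 to 429) were lower too. KRT14, at 59.2 and 68.9, lay above hRas WT (53.9 and 56.3) and within the range of the other clones (5.54 to 134). The same clone was lowest of the 4 in SLC29A1 and CDA, highest in UCK1 and, with c4, lowest in UCK2 and UMPS. The part of these markers in its levels was not tested. In HCT116, 8q-loss clone c1 held 227 and 226 CPM of UPP1 and clone c2 held 57.8 and 53.3, beside WT at 71.1 and 52.9. Without clone c2 the 8q-loss change was called (log2 fold change 1.81, adjusted p = 0.00607, edgeR), and without clone c1 it was -0.26.

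**Figure D4:**
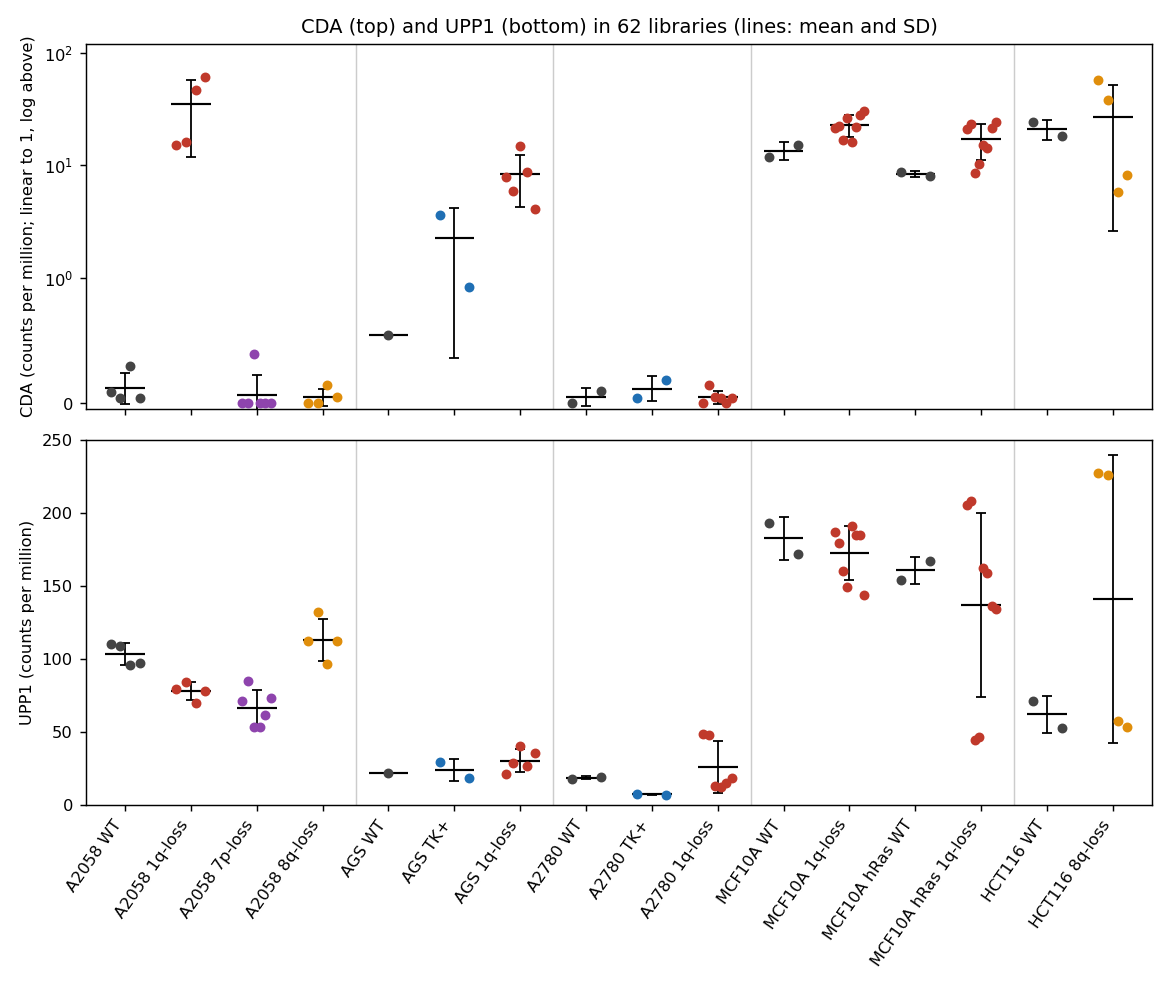
CDA (top, linear up to 1 and log above) and UPP1 (bottom, linear) in CPM in 62 libraries, with the mean and SD of each group and the colours of the UCK2 plot. In A2058, CDA is at 15.2 CPM or more in the 4 1q-loss libraries and at 0.393 or less in the other 14, and UPP1 of HCT116 8q-loss, MCF10A hRas 1q-loss and A2780 1q-loss divides by clone.

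UMPS, the de novo enzyme of the group, was not called in any comparison of loss, TK+ or hRASV12. Its nearest approach was AGS, where the 3 controls held 31.8 (WT), 29.1 and 34.1 CPM and the loss clones c1, c4, c6, c7 and c11 held 44.8, 47.4, 50, 45.7 and 32.4. Only clone c11 overlapped the controls (0.45, SE 0.148, adjusted p = 0.0920, edgeR), and without it UMPS was called (0.0165). The other 4 backgrounds gave -0.005 (A2058, SE 0.062), -0.13 (A2780, SE 0.065), 0.06 (MCF10A, SE 0.103) and -0.22 (MCF10A hRas, SE 0.202). The change differed among the 5 backgrounds (adjusted p = 0.0283), a call lost without AGS clone c6 (0.0564), without the low-count filter (0.0525) or with clones summed (0.123).

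**Figure D5:**
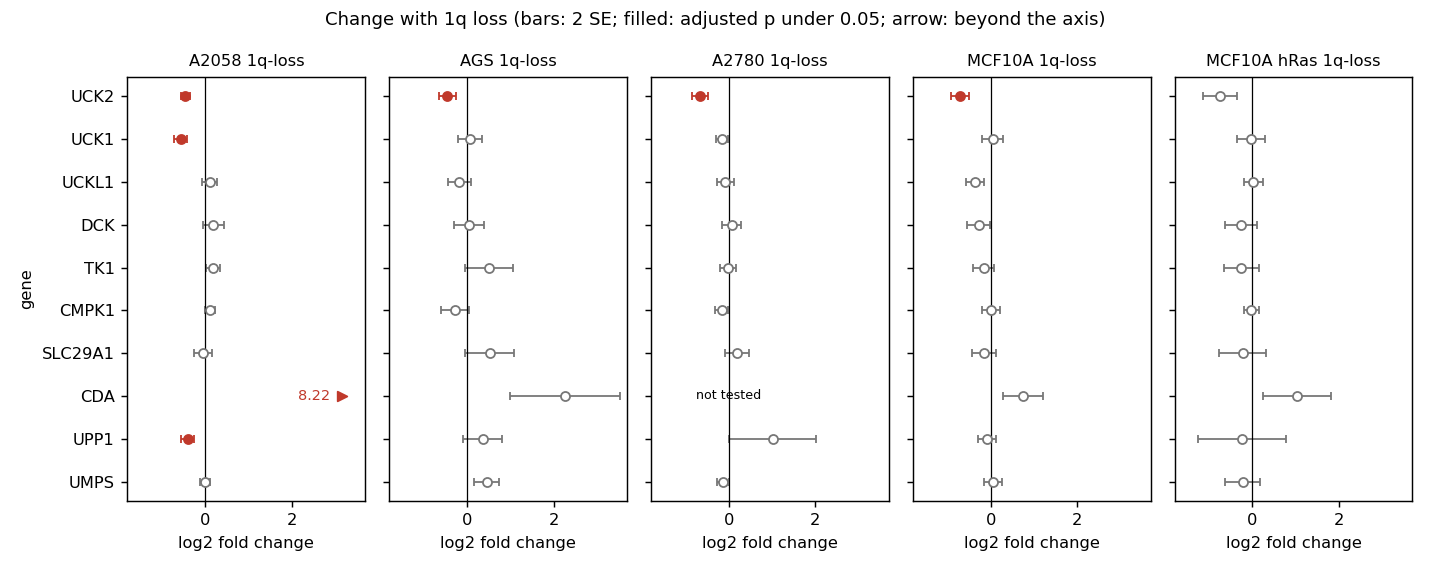
Log2 fold change with 1q loss of the 10 genes in 5 backgrounds, with bars of 2 SE and filled points where the adjusted p was under 0.05 (CDA in A2058 is written in, since it lies beyond the axis). UCK2 is left of 0 in each panel, and CDA is right of 0 in the 4 panels where it was tested.

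Counted over the members, 4 of 10 were called in A2058 1q-loss, 3 lower and 1 higher (CDA, which passed the filter only through its high group), beside 24.3% of all genes called lower and 25.3% higher. In AGS 1 of 10, in A2780 1 of 9 tested and in MCF10A 1 of 10 were called, each time UCK2 and each time lower, beside 4.17%, 5.88% and 1.74% of all genes called lower. In MCF10A hRas edgeR called 0 of 10, with 2 at an unadjusted p under 0.05 and 1 called by DESeq2. In A2058 7p-loss (0.908% of all genes called) and A2780 TK+ against WT (11.2%), 1 of 9 tested was called, each time UPP1. In A2058 8q-loss (0 of 9 tested, beside 2.03% of all genes) and HCT116 8q-loss (0 of 10, beside 0.14%) none was called by edgeR or DESeq2 and none had an unadjusted p under 0.05. For hRASV12 in MCF10A WT cells, 0 of 10 were called by either tool (2 at an unadjusted p under 0.05, 1.62% of all genes called). The median log2 fold change of the members tested with 1q loss lay between -0.22 and 0.22, and that of all genes between -0.00 and 0.03.

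The wider pathway was read from a list of 43 other genes of nucleoside and pyrimidine metabolism. In A2058 1q-loss 37 were tested, of which 9 were called lower and 13 higher, where 24.3% of all genes were called lower and 25.3% higher. The calls below are read one by one and not as a change of the pathway, and the list's median log2 fold change was -0.004. Of the 13, the transporter genes SLC28A3 (0.790 to 1.77 against 0.0849 to 0.204 CPM in WT) and SLC29A3 (0.843 to 1.77 against 0.170 to 0.361) passed the low-count filter only through the 1q-loss libraries, like CDA, so their calls were bound to come and are given as values only. NT5E (CD73), the surface enzyme that makes nucleosides from nucleotides, stood at 521 against 104 CPM in WT (log2 fold change 2.33, SE 0.184, adjusted p = 3.6e-06). DPYD, the first enzyme of uracil breakdown, stood at 39.3 against 18.0 (1.13), PNP, which splits purine nucleosides, at 79.3 against 46.9 (0.75), and TYMP, which splits thymidine, at 6.57 against 3.77 (0.80). RRM2, a subunit of ribonucleotide reductase, stood at 180 against 124 (0.54), and ADK, adenosine kinase, at 49.5 against 32.8 (0.59). TK2, DGUOK, DCTD and NT5C2 were also called higher.

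Genes of the list that fell there included 3 of de novo synthesis besides TYMS: DHODH at 17.1 against 24.0 CPM (-0.49), CTPS1 at 132 against 177 (-0.43) and CTPS2 at 12.9 against 20.7 (-0.68). CAD, also of de novo synthesis, was not called, nor was the member UMPS (-0.005). The nucleoside diphosphate kinase gene NME4 stood at 104 against 165 (-0.68), and NT5M, a mitochondrial nucleotidase gene, at 5.20 against 10.9 (-1.08). DTYMK and ADA were also called lower. The guanylate kinase gene GUK1, also on 1q, fell to 154 from 219 CPM (-0.51, SE 0.068, adjusted p = 1.29e-04, edgeR), whereas NME7, another gene of that arm, rose to 24.1 from 18.3 (0.39, SE 0.099, adjusted p = 0.00715).

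Fewer genes of the list were called elsewhere, as were fewer of all genes. In AGS, where 7.55% of all genes were called, 1 of 36 tested was called lower, SAMHD1, which degrades deoxynucleotides (76.2 against 151 CPM, -1.01), and 1 higher, SLC29A4 (5.23 against 2.35, 1.13). In A2780 1q-loss (11.8% of all genes called) 1 of 33 was called lower, RRM1 (-0.28), and 3 higher: CTPS1 (421 against 253, 0.74), RRM2B (71.2 against 46.8, 0.61) and the nucleotidase gene NT5C2 (85.9 against 63.2, 0.45). CTPS1, which makes CTP from UTP, was thus called in opposite directions in A2058 and A2780, while NT5C2 was called higher in both. In MCF10A (2.04% of all genes called) edgeR called 0 of 36, with 5 at an unadjusted p under 0.05 and 1 called by DESeq2. In MCF10A hRas (0.214%) it called 0 of 37, with 6 and 1. In A2058 7p-loss (0.908%) 1 of 35 was called lower, the pyrimidine nucleotidase gene NT5C3A on chromosome 7 (33.9 against 49.4, -0.56). In A2780 TK+ against WT (11.2%) 3 of 33 were called higher, DPYD (0.66), ADA (0.56) and SAMHD1 (0.34).

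Genes with the pattern most like UCK2 were ranked by Pearson's r among 14323 genes. Over the 16 group means of log2 CPM the first 5 were DTL (0.936), PCLAF (0.931), IPO9 (0.910), UBAP2L (0.902) and TIMM17A (0.900), and 4 of them lie on 1q with PCLAF on chromosome 15. Over 46 libraries of the 1q backgrounds, as deviations from the controls of each background, they were TADA1 (0.940), CACYBP (0.935), PRCC (0.933), COA6 (0.930) and CCT3 (0.929), all on 1q. These values share libraries, lines and the copy number of the arm, and describe likeness only. TADA1 is also within 1 Mb of UCK2.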

How the data were processed

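Messenger RNA was sequenced in 62 libraries of 5 cell lines, with poly-T selection and random hexamers per the labels' protocols. The authors deposited whole-number read counts per gene and library. The submitters' processing notes name HISAT2 2.0.5, featureCounts 1.5.0-p3 and hg38, while the coordinates in the A2780 tables are those of GRCh37. The strand setting is not given in the sources used here. Gene names, positions and exon lengths come from the deposited tables, and kinase sequences from GENCODE 29 transcripts (GRCh38).

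The members and gene lists were chosen with earlier results of these data known. Each comparison was fitted on all genes of its table that passed edgeR's filterByExpr (minimum count 10, total 15) with TMM scaling and edgeR 4.0.16's quasi-likelihood test (R 4.3.3). Benjamini-Hochberg adjusted p under 0.05 was called. SE is the log2 fold change over the square root of F. CPM is scaled by TMM over 62 libraries and 45342 shared gene IDs. Controls are WT, plus TK+ in AGS and A2780. The UCK2 to UCK1 ratio (pseudocount 0.5) was tested by exact permutation, two-sided. Named genes were the members, the list genes called in a comparison, the neighbours of UCK2 and the 5 genes most like it in each pattern. Scripts were tested on simulated data. Alternatives were DESeq2 1.42.0, no filter, TMM outside the arm, clones summed, single control kinds, a replicate block and leaving out libraries or clones.

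Replicate numbers come from the labels, which call them biological replicates but do not name separate cultures, so p-values measure the spread between these libraries and may be too small where a clone gives a pair. Numbers were taken as paired only where at least 3 clones were compared and each correlated above 0.1 with same-numbered controls, as the 4 clones of MCF10A 1q-loss did (0.169 to 0.288). The 2 clones of A2058 1q-loss (0.1 and 0.134) and A2780 TK+ against WT (0.2, a single pairing) were also positive but too few, and the other comparisons held at least 1 negative value or a value under 0.1. No libraries were identical. Intervals and floors (3 counts) cover counting error only.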

Additional observations from a re-analysis of the deposited data

Results flagged for a closer look

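In MCF10A 1q-loss, DCK in replicate 1 of clone c4 stood at 35.9 CPM, far below the other 7 libraries of its group. TK1 in replicate 1 of HCT116 8q-loss clone c1 stood at 1300 CPM, far above the other 3. Dixon's test at the 95% level marked these among 86 sets of values, each of 1 gene in a group of 4 to 8 libraries, and chance alone marks about 1 in 20 groups.

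The change with 1q loss differed among the 5 backgrounds for UCK1 (adjusted p = 0.00551) and UMPS (0.0283), by edgeR's quasi-likelihood test over all genes. UCK1 was called in A2058 and UMPS was called in no single background. For CDA the same fit gave an adjusted p of 3.85e-09, from which no difference is read, because A2780 libraries held 0 to 4 reads and A2058 WT libraries 1 to 6.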

How the results depend on the processing

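Lower UCK2 with 1q loss kept its direction in all 5 backgrounds under each alternative, and no result of the report that was called changed sign. TMM scaling on genes outside the arm changed no UCK2 call, and summing the libraries of a clone kept its calls in A2058, A2780 and MCF10A. In AGS, UCK2 lost its call with no low-count filter (-0.446), against WT (-0.357) and against TK+ cells alone (-0.486), and leaving out a library gave -0.491 to -0.419. In MCF10A the range was -0.766 to -0.631, and the call was lost without WT replicate 1. In MCF10A hRas DESeq2 called UCK2 (-0.756). The number of all genes called changed more. With DESeq2 it was 2126 in AGS (edgeR 1131), 546 in MCF10A (319), 361 in MCF10A hRas (34), 448 in A2058 7p-loss (139), 666 in 8q-loss (308), 116 in HCT116 (22) and 1 for the interaction with hRASV12 (0). It called 2 members in AGS, 2 in MCF10A and 1 in MCF10A hRas. With no filter 13 genes were called in MCF10A hRas, 487 in A2058 8q-loss, 133 in HCT116 and 633 with hRASV12 in WT (237), where 1 member was. With clones summed 725 were called in A2780 (1780), 0 in MCF10A hRas and 55 in A2058 7p-loss, where 0 members were. Against WT alone, which is 1 library, AGS had 0 genes and 0 members, so that fit says nothing about stability, and A2780 had 2 members. Against TK+ alone AGS had 167 genes and 0 members, and A2780 had 667 genes.

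Leaving out 1 library or clone moved the count of genes from 97 to 1773 in AGS, 983 to 1800 in A2780, 16 to 452 in MCF10A, 0 to 60 in MCF10A hRas, 71 to 898 in A2058 7p-loss, 119 to 783 in 8q-loss, 0 to 117 in HCT116, 1094 to 3278 with TK+ and 0 to 173 with hRASV12 in WT. Members called ran from 0 to 3 in AGS, 1 to 2 in A2780, 0 to 1 in MCF10A, 0 to 1 in A2058 7p-loss, 0 to 1 in HCT116, 1 to 3 with TK+ and 2 to 5 for the difference among backgrounds. The cause of these changes was not tested, beyond the fewer libraries.

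With the replicate block, UCK2 in MCF10A 1q-loss, where the numbers were taken as paired, gave -0.698 (adjusted p = 0.00324), and no call of a member there changed. Elsewhere the samples share only a number. The replicate block left 2 genes called in MCF10A hRas, 1 gene and 0 members in A2058 7p-loss (UPP1 -0.559, adjusted p = 0.662), 39 in 8q-loss and 8 in HCT116, and 711 genes and 1 member (CDA) with hRASV12 in WT. In A2058 1q-loss it added a call of TK1 (0.298, adjusted p = 0.0292). AGS has no replicate numbers to block. Depth limits CDA in A2058 and A2780, where libraries hold a few reads.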
